A study of Mus musculus with 12 samples.

Results

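The 4629 regions described here are the stretches of accessible chromatin within 1 kb of the start sites of long noncoding RNA (lncRNA) genes in cultured mouse cortical neurons. All are called lncRNA promoter regions below, but only 1203 (26.0%) contain a lncRNA start site. They were found by merging the ATAC-seq peaks of all 12 libraries into 263785 regions, keeping those on chromosomes 1 to 19 within 1 kb of an annotated start site of a lincRNA, antisense, processed_transcript or bidirectional_promoter_lncRNA gene, and dropping every region within 1 kb of a protein-coding start site. The last step left out 3311 regions, so lncRNA start sites next to a coding start site are not covered, although such a gene can still appear through another start site. ATAC-seq cuts open chromatin with the transposase Tn5, and fragments pile up where DNA is accessible.

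The neurons came from C57BL/6 embryos of embryonic day 18 and were cultured for 7 days with PBS (the vehicle), with pre-formed fibrils of alpha-synuclein (PFF), with PFF and the LRRK2 kinase inhibitor MLi-2 for the last 5 days (PFF+MLi-2), or with PFF and antisense oligonucleotides against the endosomal GTPase Rab5 for the last 3 days (PFF+Rab5 ASO). Each of the 4 groups had 3 libraries, which the labels call biological replicates. The methods count each pregnancy as 1 replicate and spread its cultures over the groups, but the sources do not say whether a replicate number marks the same pregnancy in every group. The comparisons asked which regions differ with PFF, and which differ when either agent is added to PFF. The PFF libraries serve as the reference for both agents, so those comparisons share 3 libraries. No group received MLi-2 or the ASO without PFF, so an effect of the agent itself and an effect on the response to PFF cannot be told apart. None received a control oligonucleotide either, so reduced Rab5 and exposure to an oligonucleotide cannot be told apart.

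A lncRNA is a transcript with no long reading frame. Some act in the nucleus, as Neat1 does in building paraspeckles, some only host small RNAs that are cut from their introns or exons, and for most no role is known. Their promoters fall broadly into CpG-rich ones, which resemble the promoters of housekeeping genes and are open in many cell types, and CpG-poor ones, which are more often open in a single tissue. Antisense lncRNAs overlap another gene on the opposite strand, and the annotation type lincRNA stands for transcripts between genes.

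Of 9065 annotated lncRNA genes on chromosomes 1 to 19, 2923 (32.2%) had at least one of these regions. They comprised 1868 lincRNA, 799 antisense, 250 processed_transcript and 6 bidirectional_promoter_lncRNA genes. Most of the genes, 1743, had a single region, 744 had 2, and 44 had 5 or more. The most, 19, lay at 3110039I08Rik. Regions were short, with a median of 172 bp and a range of 53 to 2175 bp, and the longest covered a start site of Dleu2, the host of miR-15a and miR-16. The median distance to the nearest coding start site was 34.2 kb, and 25.8% of the regions lay inside the body of a coding gene.

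The number of libraries with a peak varied widely between regions. A peak was present in all 12 libraries for 1655 regions (35.8%), in 1 library alone for 995 (21.5%) and in 2 to 11 libraries for the other 1979 (42.8%). Protein-coding promoter regions were more often present throughout, 49.9% of 36884, and regions over 1 kb from any start site less often, 23.5% of 218687. These shares are descriptions of one set of 12 libraries and were not tested against each other.

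**Figure D1:**
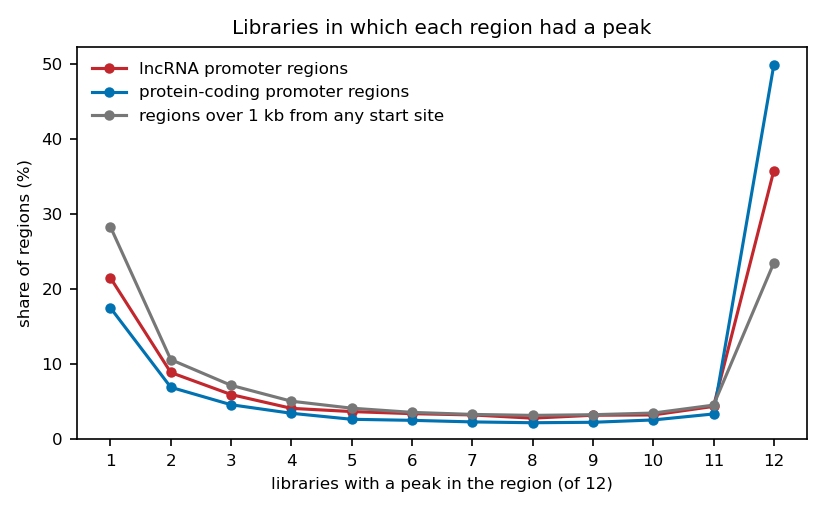
Share of regions (%) by the number of libraries in which they had a peak, for lncRNA promoter regions (red), protein-coding promoter regions (blue) and regions over 1 kb from any start site (grey). In each class most regions sit at the 2 ends, and at 12 libraries the lncRNA promoter regions (35.8%) lie between the coding promoters (49.9%) and the distal regions (23.5%).

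Some windows of 300 bases show how different the sequence under these peaks can be. Each is centred on the highest summit of its region in GRCm38, is written 5′ to 3′ on the strand of the lncRNA, and has its CpG dinucleotides in capitals. The first pair stand for CpG-rich promoters present in every library: Snhg6, a host gene of small nucleolar RNAs (chr1:9944023-9944322, minus strand), and 2900097C17Rik, the mouse Norad gene, whose RNA binds Pumilio proteins (chr2:156392837-156393136, minus strand). Mir124a-1hg, a host gene of the neuronal microRNA miR-124 (chr14:64589486-64589785, plus strand), was the listed gene with a called region under the Rab5 ASO, and C78283 (chr5:73946101-73946400, plus strand) had a peak in the PFF libraries alone.

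Snhg6: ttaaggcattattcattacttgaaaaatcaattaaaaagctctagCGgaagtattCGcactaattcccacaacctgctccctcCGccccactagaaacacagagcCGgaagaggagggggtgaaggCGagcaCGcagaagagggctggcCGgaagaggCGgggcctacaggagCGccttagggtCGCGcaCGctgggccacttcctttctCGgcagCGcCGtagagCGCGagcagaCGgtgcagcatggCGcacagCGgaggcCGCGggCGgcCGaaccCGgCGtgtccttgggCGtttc
2900097C17Rik: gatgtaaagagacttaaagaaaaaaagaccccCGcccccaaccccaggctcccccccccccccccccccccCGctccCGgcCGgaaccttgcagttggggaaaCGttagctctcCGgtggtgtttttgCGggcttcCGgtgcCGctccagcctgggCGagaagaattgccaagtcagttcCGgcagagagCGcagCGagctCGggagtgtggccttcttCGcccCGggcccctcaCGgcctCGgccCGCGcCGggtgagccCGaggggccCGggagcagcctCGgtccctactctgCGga
Mir124a-1hg: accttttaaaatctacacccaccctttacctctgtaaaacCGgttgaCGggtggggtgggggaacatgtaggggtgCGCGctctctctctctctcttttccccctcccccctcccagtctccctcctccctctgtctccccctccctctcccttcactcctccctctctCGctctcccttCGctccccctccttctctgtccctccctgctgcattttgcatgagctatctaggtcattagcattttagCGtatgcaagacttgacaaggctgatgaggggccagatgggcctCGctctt
C78283: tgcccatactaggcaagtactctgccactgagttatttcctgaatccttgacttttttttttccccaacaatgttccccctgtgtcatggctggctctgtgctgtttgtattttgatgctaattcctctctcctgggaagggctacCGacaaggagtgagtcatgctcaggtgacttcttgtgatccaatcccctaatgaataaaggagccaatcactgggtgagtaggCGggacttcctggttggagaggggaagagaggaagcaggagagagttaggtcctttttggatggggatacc

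The Snhg6 window held 27 CpG dinucleotides and the 2900097C17Rik window 25, against 8 in Mir124a-1hg and 2 in C78283. Both CpG-rich windows contained GGGCGG, the GC box bound by Sp factors, and CCGGAAG, the core bound by ETS factors. The C78283 window contained TGANTCA, the AP-1 site, and CCAAT, and the Mir124a-1hg window contained CAGATG, an E-box of neurogenic bHLH factors.

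Over all lncRNA promoter regions, the ratio of observed to expected CpG in the 300 bases around the summit had a median of 0.284, between 0.577 at coding promoters and 0.2 at distal regions, and it was above 0.6 in 13.1%, 47.7% and 2.65% of regions respectively. The median GC content was 50.3%, 58.3% and 46.3%. Motif shares followed the same order. GGGCGG was present in 16.4% of lncRNA promoter windows, 43.3% of coding ones, 6.14% of distal ones and 11.6% of all regions. For CCGGAAG the shares were 2.92%, 8.14%, 1.21% and 2.22%. CACGTG, the E-box that includes the core of the CLEAR element, was present in 5.94%, 7.58%, 4.33% and 4.81%, and TGACGTCA, the cAMP response element, in 0.821%, 1.58%, 0.296% and 0.486%.

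Motifs of the distal kind ran in the other direction. TGANTCA was found in 12.2% of lncRNA promoter windows, 6.86% of coding ones, 15.0% of distal ones and 13.8% of all regions. CAGATG was found in 26.6%, 16.6%, 30.7% and 28.6%, and TATAAA, the TATA box core, in 12.7%, 7.01%, 19.1% and 17.2%. CCAAT differed least, at 32.5%, 30.5%, 34.7% and 34.1%. Both strands were searched, none of the motifs contains another, and a match is a description of the letters only. The windows differ in base composition, which moves with these shares, and its part in them was not tested.

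Where a region lay relative to the start site went with its presence across libraries. The 1203 regions that contained a lncRNA start site had a peak in all 12 libraries in 63.8% of cases (Wilson 95% interval 61.1 to 66.5, counting error only) and had a median width of 310 bp. For the 3426 without one inside, the values were 25.9% and 143 bp, near the 23.5% and 142 bp of distal regions. The 1134 regions ending 1 to 250 bp from the site were present throughout in 23.1% of cases (20.7 to 25.6), and the 676 farthest within the limit in 29.4% (26.1 to 33.0). Across the 1 kb limit of the definition there was no step: 28.1% of the 256 regions in the last 100 bp inside it and 29.0% of the 276 regions in the first 100 bp outside had a peak in all 12 libraries, with median widths of 152 and 156 bp. Width moves with both measures, since merging widens a region with each further peak: all 280 regions over 600 bp were present throughout, against 1.24% of the 2017 regions up to 150 bp. Its part was not tested.

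CpG content went with presence as well. Regions with a ratio up to 0.2 were present throughout in 26.3% of cases (n = 1465), and those above 0.8 in 68.2% (n = 220, interval 61.8 to 74.0). Coding promoters over the same bins ran from 26.1% to 77.3% and distal regions from 20.4% to 46.7%. Split by both properties, presence was highest, 80.7%, for the 259 regions that contained the start site and had a ratio above 0.6. It was 59.2% for the 944 with the start site and a lower ratio, 40.1% for the 347 with a high ratio but no start site inside, and 24.3% for the other 3079.

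**Figure D2:**
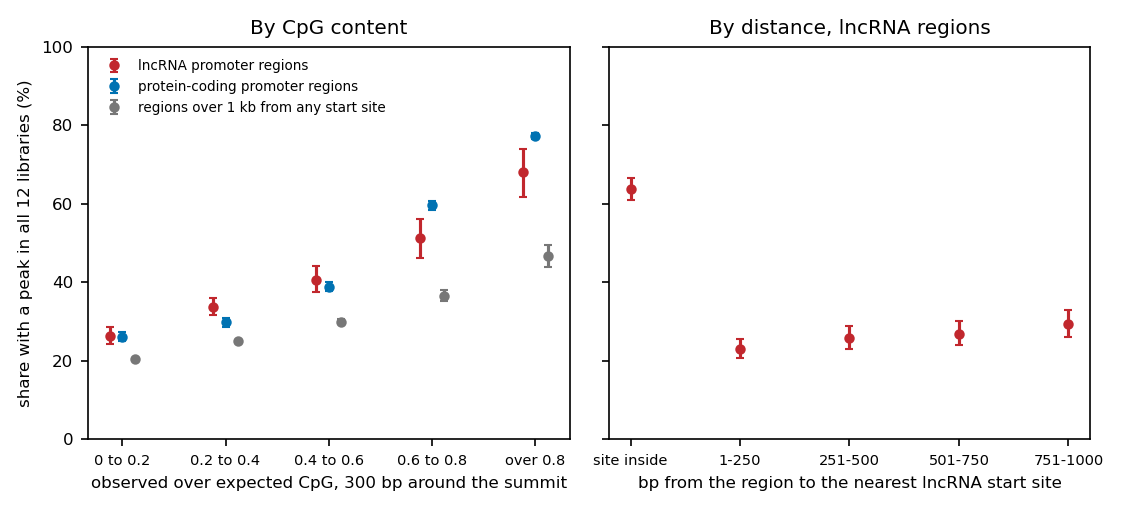
Share present in all 12 libraries (%, points; bars are Wilson 95% intervals, counting error only), by observed over expected CpG for 3 classes of region (left) and by distance to the start site for lncRNA promoter regions (right). The share of lncRNA promoter regions runs from 26.3% in the lowest CpG bin to 68.2% in the highest, and is 63.8% with the start site inside against 23.1% to 29.4% without.

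Where a start site lay inside a region present in all libraries, the highest summit was usually upstream of it: 552 of 768 (71.9%), with a median position 40.0 bp before the start. Gene type made less difference. All 12 libraries had a peak in 40.3% of regions nearest to processed_transcript genes, 36.5% for lincRNA and 32.2% for antisense genes. Windows that were mostly repeat were rare: 1344 regions had no repeat-masked base around the summit, 3151 had up to 50% and 134 had more, and 37.8%, 35.6% and 19.4% of these were present throughout.

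Height was read from the fold enrichment that the peak caller gave each peak over the local background, expressed as a percentile within the library's own list (the fold percentile, 100 being the highest). The fold and p-value together also give back the number of fragments stacked at the summit. In the regions present in all libraries this pileup had a median of 27.0 fragments, against 12 in regions seen in 1 library, so a peak of the second kind rests on few fragments and its absence elsewhere may lie below detection at this depth. In these cultures a lower summit in every cell and a smaller number of cells with an open site cannot be told apart.

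The highest regions were promoters of little-studied genes and of 1 small RNA host. By the mean fold percentile over 12 libraries, the first 6 were Gm26611, Gm42418, Gm5165, Snhg6, 9430037G07Rik and Gm6712. At Gm26611 (chr9:88858608-88859236, start site inside), the fold was 21, 21.4 and 22.3 in the PBS libraries, 21.4, 23.5 and 22.5 in PFF, 20.8, 21.3 and 19 in PFF+MLi-2, and 17, 20.6 and 18.5 in PFF+Rab5 ASO. At Snhg6 it was 20.1, 16.4 and 15.3 in PBS, 19.3, 17.8 and 20 in PFF, 18.3, 16.9 and 17.3 in PFF+MLi-2, and 15.8, 18.3 and 15 in PFF+Rab5 ASO. Every library placed both regions above the 99th percentile. At Gm26611 the PFF folds lay above all those of PFF+MLi-2 and PFF+Rab5 ASO, but ranks near the top of a list are close together and neither difference was called (limma adjusted p = 0.938 and 0.703). At Snhg6 the groups overlapped in fold.

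Gm42418 (chr17:39846817-39846944) needs care, because it lies in a locus that the annotation also gives as ribosomal RNA, a gene present in many copies. Its fold was 16.7 to 23.6 over the 12 libraries, and reads from other copies could be placed there. Of all regions present throughout, 26 averaged above the 99th percentile. Of these 23 contained the start site and 17 had a CpG ratio above 0.6.

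Among RNAs of nuclear architecture and gene regulation, 10 of 13 listed genes had a region (2 were not in the annotation under the listed name) and all 10 had one present in every library. Malat1, an abundant RNA of nuclear speckles, had a region over its start site (chr19:5802567-5802830) at the 61.7, 73.1 and 66.0 percentile in PBS, 54.2, 58.6 and 56.3 in PFF, 62.4, 63.6 and 58.8 in PFF+MLi-2 and 58.7, 67.5 and 60.9 in PFF+Rab5 ASO. The 3 PFF libraries were the lowest of the 12, yet none of the comparisons passed the test (limma adjusted p = 0.615, 0.534 and 0.559 over all regions). The wider region upstream of Malat1 (chr19:5803103-5803881) had its 3 PFF values, 75.4, 72.6 and 73.5, below those of the other groups too (lowest 75.8), with adjusted p = 0.715, 0.4 and 0.326. Neat1 had no region over its start but had one 235 bp away (chr19:5845713-5846137), shared with the antisense gene Frmd8os, at 51.9, 59.4 and 59.5 in PBS and 45.4, 54.6 and 29.5 in PFF, where the groups overlapped.

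Several other promoters of this list varied little. 2900097C17Rik ranged from 97.6 to 99.7 over the libraries, 1810026B05Rik (Chaserr, next to the chromatin remodeller gene Chd2) from 94.2 to 97.6, Dubr from 93.9 to 98.8 and Crnde from 87.0 to 92.9. Miat, an RNA of neuronal nuclei, was at 80.0, 81.6 and 79.0 in PBS and 69.2, 75.4 and 61.1 in PFF at its start site (chr5:112228462-112229127). Those groups did not overlap, and the difference was not called (effect -0.56 SD, limma adjusted p = 0.449). Tug1 lay near a coding start site and was not included.

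Of the imprinted RNAs, the start sites of Kcnq1ot1, Airn and Nespas had a region in all 12 libraries. These antisense RNAs are transcribed from one parental allele and silence or overlap genes in cis. Kcnq1ot1 (chr7:143296397-143296852) lay between 94.1 and 98.4, Nespas between 85.7 and 94.4, and Airn between 69 and 87.1. H19, an RNA of growth-regulating imprinted loci, had a peak of 62 bp in 1 library only, at the 2.97 percentile.

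Of 33 listed host genes of small RNAs, 15 had a region and 14 of these had one present throughout. Of the others, 8 were left out for a coding start site, 8 were not in the annotation under the listed name, 1 was of another gene type and 1, Mir142hg, had no region. Most snoRNA hosts were high in every library. Snhg15 ranged from 98.0 to 99.8, Snhg12 from 92.8 to 98.2, Snhg5 from 91.9 to 95.8 and Snhg8 from 90.7 to 96.6, and Epb41l4aos from 97.7 to 99.6. Gas5, Zfas1 and Snhg1, hosts of the same kind, lie near coding start sites and were not included.

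MicroRNA hosts differed among themselves. Dleu2 (93.7 to 97.6 at its highest region) and Mir99ahg (95.6 to 99.5) were as high as the snoRNA hosts, while Mir9-3hg, Mir124a-1hg and Mir124-2hg were lower on this scale. At Mir9-3hg (chr7:79499697-79500142), a host of the neural miR-9, the percentile was 23.8 to 50.4 and the pileup 45.0 to 59.0 fragments. At the start site region of Mir124-2hg with the highest percentile (chr3:17793671-17794040) the pileup was lower, 25.0 to 35.0. Snhg15 had a pileup near that of Mir9-3hg, 51.0 to 64.0, at a fold of 12.5 to 16 against 4.17 to 5.20 at Mir9-3hg. The fold divides by the local background, so a summit within a broad open domain can have a low fold even when many fragments cover it. Whether this holds at Mir9-3hg was not tested. Mir124a-1hg had 5 regions present in all libraries and Mir124-2hg had 3, and all 8 stayed below the 60th percentile in every library. Mir155hg, the host of miR-155, a microRNA of immune cells, had a peak in 11 libraries.

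**Figure D3:**
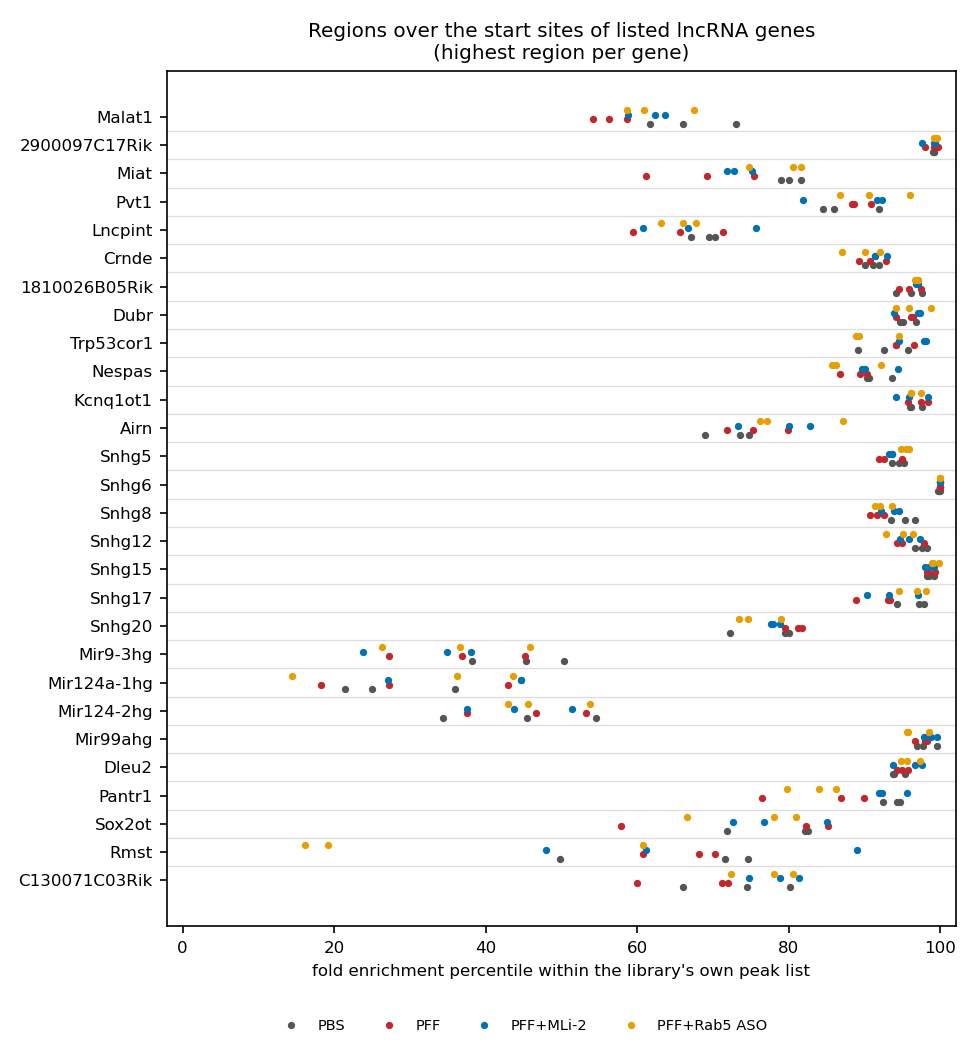
Fold percentile of the highest region over a start site for 28 listed lncRNA genes, 1 point per library, 3 libraries per group (grey PBS, red PFF, blue PFF+MLi-2, orange PFF+Rab5 ASO). Snhg6, Snhg15 and 2900097C17Rik stay above 97 in every library, and the microRNA hosts Mir9-3hg, Mir124a-1hg and Mir124-2hg stay below 55.

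Among neurodevelopmental RNAs, 9 of 22 listed genes had a region and 7 had one present throughout, with a median percentile of 53.0 over 16 such regions. Of the others, 4 were left out for a coding start site, 7 had no region, 1 was of another gene type and 1 was not in the annotation under the listed name. Pantr1, a cortical RNA next to the transcription factor gene Pou3f3, had a CpG-poor region (chr1:42667578-42668177) at 94.7, 94.3 and 92.4 in PBS and 89.9, 76.4 and 86.9 in PFF. The PFF values lay below all PBS values, without passing the test (effect -0.69 SD, limma adjusted p = 0.404). Sox2ot, which overlaps Sox2, had up to 85.2 at one start site, and C130071C03Rik, the host of miR-9-2, had 6 regions in all libraries. Hotair, Hottip and Hoxa11os, RNAs of the posterior Hox clusters, had no region.

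Promoters of cell type markers bear on what the cultures contained. All 13 neuronal markers had a promoter peak in all 12 libraries, from Syn1 at a mean percentile of 98.7 to Slc17a7 at 14.3. Of the 5 microglial markers 0 did: Cx3cr1 and Aif1 had no peak, P2ry12 had one in 3 libraries, Tmem119 in 5 and Csf1r in 7. Astrocyte markers had one throughout for 3 of 5 (not Aqp4 or Gja1), oligodendrocyte lineage markers for 2 of 6 (Mbp and Pdgfra), and endothelial and fibroblast markers for 1 of 4 (Col1a1). An open promoter does not show that a gene is transcribed, and the part of other cells in the differences below was not tested.

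The libraries held 137417 to 184717 peaks, and the number of regions reached did not follow list length throughout: PFF+Rab5 ASO replicate 3 (162763 peaks) reached fewer than PFF replicate 3 (151900 peaks). PBS libraries had a peak in 2987, 2324 and 2584 lncRNA promoter regions, PFF in 2939, 2850 and 2672, PFF+MLi-2 in 2512, 2537 and 2551, and PFF+Rab5 ASO in 2943, 2672 and 2593. The PFF range lay above that of PFF+MLi-2 and overlapped both other groups. As a share of each list, 1.93% to 2.14% of peaks fell in these regions. Peaks of the PFF+Rab5 ASO libraries were narrower, with medians of 118, 124 and 112 bp against 127 to 139 bp in the other groups, and this moves with every comparison that involves them.

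With PFF, more lncRNA promoter regions were gained than lost. Gained means a peak in each of the 3 PFF libraries and in none of the PBS libraries, and lost means the reverse; the same definition serves the other comparisons. Of 3976 regions with a peak in either group, 48 (1.21%, Wilson interval 0.912 to 1.60) were gained and 8 (0.201%, 0.102 to 0.397) were lost. Here and in the comparisons below, such intervals cover counting error over regions only, and not the spread between libraries. Over all regions of the series, 1.10% were gained and 0.405% lost, so the gained share is near that background. With the same number of top peaks from every library, 35 were gained and 12 lost, so list length moves with this balance. Of the 48, 17 contained a start site, and their median fold percentile in the PFF libraries was 30.0.

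C78283 and AC161579.1, lincRNAs of unknown role, were the named gains with peaks in the PFF libraries alone. The C78283 region (chr5:73946172-73946338, 43 bp from the start site) had pileups of 17, 14 and 14 fragments in the PFF libraries at the 70.2, 56.6 and 58.0 percentile. None of the PBS, PFF+MLi-2 or PFF+Rab5 ASO libraries had a peak there. The AC161579.1 region (chr19:56105824-56106096) showed the same presence, with PFF pileups of 14, 14 and 18. Both count as gained with PFF and lost with either agent, and all of these calls rest on the same 3 PFF libraries.

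The other named gains had peaks beyond PFF. Gm11732 (chr11:117425952-117426213, start site inside) stood at 80.2, 75.7 and 83.5 in PFF, at 26.2, 43.8 and 38.4 in PFF+MLi-2 and at 59.4, 72.1 and 36.5 in PFF+Rab5 ASO, with no peak in PBS. AL589878.1, within a coding gene, was at 62.5, 65.6 and 53.6 in PFF and in 1 PFF+MLi-2 and all 3 PFF+Rab5 ASO libraries. Among listed genes, 1 region of Mir99ahg (chr16:77593116-77593318), host of miR-99a and let-7c-1, was gained.

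Lost regions were few. Gm16534 (chr2:32063619-32063847) was at 37.4, 32.9 and 54.2 in PBS, absent in PFF, and present again in 1 PFF+MLi-2 and all 3 PFF+Rab5 ASO libraries. Gm35392 was at 65.2, 40.5 and 7.62 in PBS and in all 3 PFF+Rab5 ASO libraries. 4933408N05Rik had peaks in PBS alone, with pileups of 12, 11 and 11 fragments, and 1700116B05Rik in PBS and PFF+MLi-2.

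**Figure D4:**
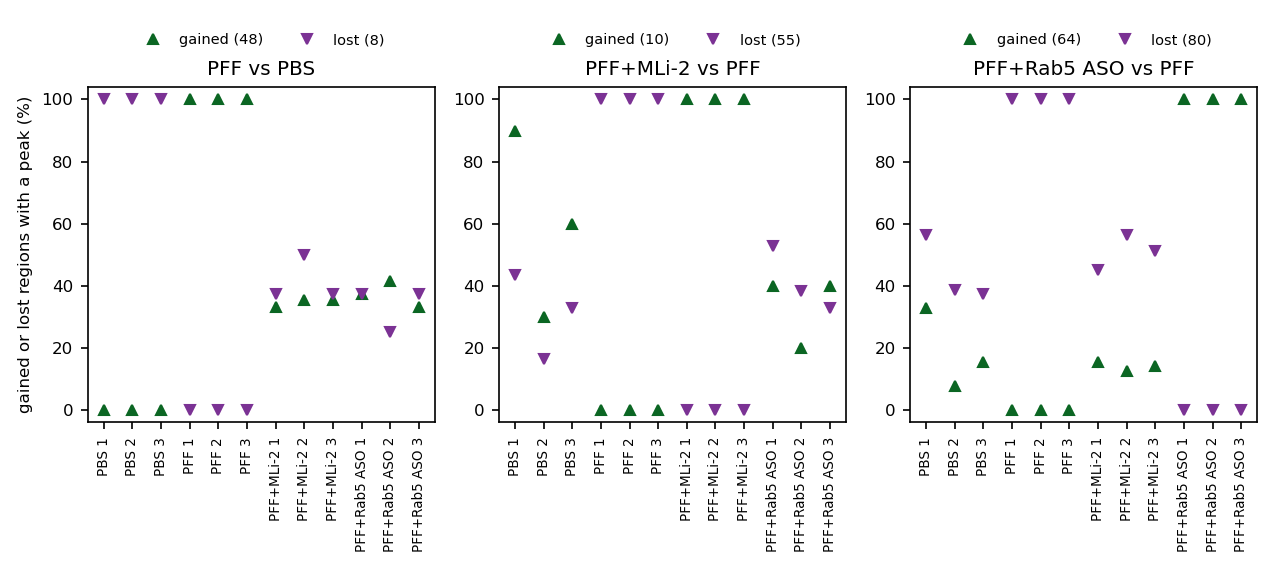
Share of the gained (green, upward) and lost (purple, downward) lncRNA promoter regions with a peak in each of the 12 libraries, for the 3 comparisons; the number of regions is in brackets. The libraries of a comparison stand at 0% or 100% by definition, and of the 48 regions gained with PFF, 16 to 20 had a peak in each library of the treated groups.

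Of the 48 gained regions, 16, 17 and 17 had a peak in the PFF+MLi-2 libraries and 18, 20 and 16 in the PFF+Rab5 ASO libraries. Of the 8 lost regions, 3, 4 and 3 had one in PFF+MLi-2 and 3, 2 and 3 in PFF+Rab5 ASO. The choice used the PBS and PFF libraries, so these counts describe the other libraries and are not tested. Leaving out 1 library, which loosens the rule, gave 62 gained regions (without PBS replicate 2) to 114 (without PBS replicate 1), and 15 lost (without PFF replicate 3) to 40 (without PBS replicate 2). The counts were thus closest, 62 against 40, without PBS replicate 2, the library with the shortest list (137417 peaks).

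With PFF, none of the 1655 regions present in all libraries was called for a changed height rank. A missing call with 3 libraries per group does not show that a rank was unchanged. Ranks of the fold were turned into normal scores and tested with limma over all 72465 such regions, with Benjamini-Hochberg adjustment, so effects are in standard deviations (SD) of the score. In these lncRNA promoters 0 were called, as over all regions (0%), and 148 had an unadjusted p under 0.05. The lowest adjusted p among them was 0.220. In 227 (13.7%) the groups did not overlap, against 14.6% of all regions. PFF was higher in 135 (8.16%) and PBS in 92 (5.56%). These shares were 5.22% and 9.92% at coding promoters and 9.36% and 5.15% at distal regions. The median effect was -0.010 SD against -0.020 over all.

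The values of the most separated regions are given for reference. Gm29083, antisense within a coding gene (chr1:62717990-62718191), stood at 48.0, 40.5 and 62.8 in PBS and 84.3, 78.8 and 85.7 in PFF (effect 1.27 ± 0.256 SE, limma adjusted p = 0.22). AC102255.2, Gm5547 and Gm15406 followed with effects of 1.23, 1.22 and 1.20. At the other end, Gm49303 (chr14:47959636-47960094) stood at 85.1, 77.7 and 75.4 in PBS and 70.2, 42.0 and 33.6 in PFF (effect -1.21, adjusted p = 0.247), followed by Gm32171, 4930594M17Rik and Gm44202 at -1.15, -0.95 and -0.92. Without PFF replicate 3 the effect at 4930594M17Rik was -0.45. None of these 8 passed the test.

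With MLi-2 added to PFF, the balance was opposite: of 3881 regions, 10 (0.258%, interval 0.140 to 0.474) were gained and 55 (1.42%, 1.09 to 1.84) lost. Over all regions 0.374% were gained and 1.64% lost. The PFF+MLi-2 lists were shorter than those of PFF (145497 to 147991 against 151900 to 172377 peaks). When the same number of top peaks was taken from every library, 25 were gained and 30 lost, so list length moves with this balance. Leaving out 1 library gave 16 to 30 gained (without PFF replicate 3 and PFF+MLi-2 replicate 2) and 87 to 112 lost (without PFF+MLi-2 replicate 3 and PFF replicate 3).

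Besides C78283 and AC161579.1, the lost regions with the highest fold were 1700108F19Rik (chr14:76672806-76672945), at 61.3, 62.1 and 51.5 in PFF and 29.9 in each of 2 PBS libraries, and AC162612.1 (chr19:21104676-21104820, start site inside), at 55.6, 50 and 63.5 in PFF. Of the 55 lost regions, 24, 9 and 18 had a peak in the PBS libraries and 29, 21 and 18 in PFF+Rab5 ASO. Of the 10 gained, 9, 3 and 6 had one in PBS. The gain with the highest fold was E130101E03Rik, over its start site (chr9:24974044-24974212), at 65.1, 66.0 and 21.1 in PFF+MLi-2 and in 2 PBS libraries. 1700109K24Rik, 9630013D21Rik and a second region of AC102255.2 were the other named gains, each with 11 to 19 fragments in PFF+MLi-2.

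Height ranks gave no call with MLi-2 either: 0 of 1655 and 0% of all regions, with 185 at an unadjusted p under 0.05 and a lowest adjusted p of 0.152. Groups did not overlap in 288 regions (17.4%, against 18.1% of all), 86 (5.20%) with PFF+MLi-2 higher and 202 (12.2%) with PFF higher. The same shares were 8.10% and 8.18% at coding promoters and 4.22% and 14.6% at distal regions. The lowest adjusted p belonged to Gm32171 (chr9:33152207-33152562). It stood at 76.0, 74.6 and 67.7 in PBS, 40.4, 32.2 and 51.5 in PFF, 85.9, 79.9 and 83.3 in PFF+MLi-2 and 39.4, 28.3 and 9.37 in PFF+Rab5 ASO (effect 1.70 ± 0.232 SE for MLi-2, limma adjusted p = 0.152). The PBS and PFF+MLi-2 libraries all lay above those of the other groups, without a call in either comparison.

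Effects of the other named regions with MLi-2 were 1.10 for Gm32389, 1.09 for Gm31600 and 1.04 for Gm38182 (which lies in a coding gene). They were -1.60 for Gm12408, -1.35 for 2310008N11Rik, -1.28 for 4930431P03Rik and -1.25 for 1700047M11Rik. With ranks of the summit pileup the effect at Gm38182 was 0.49. At 2310008N11Rik (chr8:26879394-26879819) the PFF libraries, 85.4, 85.7 and 85.0, lay above the other 9, which ranged from 34.8 to 71.1. At Gm12408 (chr4:45641359-45641562) the PFF values of 67.9, 64.5 and 79.8 stood above 7.70 to 46.9 in the other groups. These 2 regions were called lower with the Rab5 ASO, below.

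The Rab5 ASO comparison was the one with calls. Against PFF, 64 of 4146 regions were gained (1.54%, interval 1.21 to 1.97) and 80 lost (1.93%, 1.55 to 2.39), against 2.64% and 1.94% of all regions. In 1655 height ranks 50 differed (3.02%; 23 higher and 27 lower with the ASO, limma adjusted p under 0.05) against 3.83% of all regions, and 326 had an unadjusted p under 0.05. Coding promoters were called in 1.19% and distal regions in 4.79% of cases. Groups did not overlap in 409 regions (24.7% against 25.8% of all), 208 (12.6%) higher and 201 (12.1%) lower. The same shares were 17.1% and 6.62% at coding promoters and 12.8% and 13.8% at distal regions. The median effect was -0.0083 SD. The narrower peaks of these 3 libraries move with all of these counts, and their part was not tested.

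1700111E14Rik, antisense within a coding gene, had the largest rise. Its region was at 54.8, 7.73 and 49.8 in PBS, 30.0, 77.4 and 22.6 in PFF, 30.2, 48.4 and 31.7 in PFF+MLi-2 and 95.6, 96.5 and 95.3 in PFF+Rab5 ASO. The pileup was 32.0, 32.0 and 30.0 fragments in PFF+Rab5 ASO and 9 to 19 in the other 9 libraries (effect 2.40 ± 0.4 SE, limma adjusted p = 0.0207). That group stood clear of the rest on both scales, but the pileup is recovered in part from the same fold and is not scaled for depth. Gm35850 (chr8:90740641-90740891, start site inside) was at 90.3, 95.6 and 90.3 with the ASO and 53.4 to 70.2 elsewhere (effect 1.44, adjusted p = 0.0223).

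Mir124a-1hg was the only listed gene with a called region. The region contains an annotated start site of the gene (chr14:64589483-64589818). Its percentile was 3.63, 21.9 and 2.10 in PBS, 3.82, 5.70 and 9.40 in PFF, 12.8, 3.47 and 8.56 in PFF+MLi-2, and 51.3, 44.0 and 45.1 in PFF+Rab5 ASO. The pileup was 69, 63.0 and 64.0 fragments with the ASO against 35.0 to 45.0 in the other 9 libraries (effect 1.28 ± 0.201 SE, limma adjusted p = 0.0178). The other 4 regions of the gene present in all libraries had adjusted p of 0.346 to 0.969. At the one just downstream (chr14:64589944-64590421) the pileup was 25.0 to 38.0 in all groups, and 38.0, 31.0 and 38.0 with the ASO. Mir124-2hg had 3 such regions, with adjusted p of 0.713 to 0.878, and no call.

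AC166654.1, a lincRNA of unknown role, had neighbouring regions that moved in opposite directions. The one at chr17:31789967-31790490 was at 11.1, 39.0 and 25.2 in PFF and 72.5, 80.7 and 80.4 in PFF+Rab5 ASO (effect 1.76 ± 0.260 SE, limma adjusted p = 0.0159). With ranks of the summit pileup its effect was 1.13 (limma adjusted p = 0.0342). The next one, from 31790522, fell by 1.07 SD (adjusted p = 0.0425); it is named because of this neighbour, after its values were seen. C230024C17Rik and AC147989.1 completed the 5 largest rises, at 1.5 and 1.43.

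The largest falls were in Gm46392, 1700047M11Rik, AC137585.3, Gm47459 and Ube4bos2, with effects of -2.01, -1.72, -1.70, -1.58 and -1.51. Gm47459 (chr10:78630245-78630497) stood at 81.3, 62.0 and 83.7 in PBS, 86.3, 82.6 and 87.9 in PFF, 87.7, 86.5 and 67.1 in PFF+MLi-2 and 48.0, 48.3 and 41.7 in PFF+Rab5 ASO, the lowest of the 12 (standard error 0.196, limma adjusted p = 0.0152). Gm46392 (chr13:38710285-38710622) was less even with the ASO, at 8.69, 70.3 and 31.0, against 93.4, 82.6 and 89.6 in PFF (standard error 0.431, adjusted p = 0.0385). That call was kept in 2 of 11 refits (limma adjusted p 0.0413 to 0.193) and was lost with the replicate block and in every fit that left out 1 library except that without PFF+Rab5 ASO replicate 2. At 1700047M11Rik (chr1:182287875-182288065, start site inside) the ASO libraries, 29.1, 39.3 and 19.2, lay below PBS (56.2 to 71.9), PFF (66.0 to 89.1) and, narrowly, below PFF+MLi-2 (39.6 to 48.0). AC137585.3 was at 20.9, 23.0 and 41.7 with the ASO and 80.4, 80.1 and 77.7 in PFF, with PBS at 68.2, 36.4 and 49.8.

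**Figure D5:**
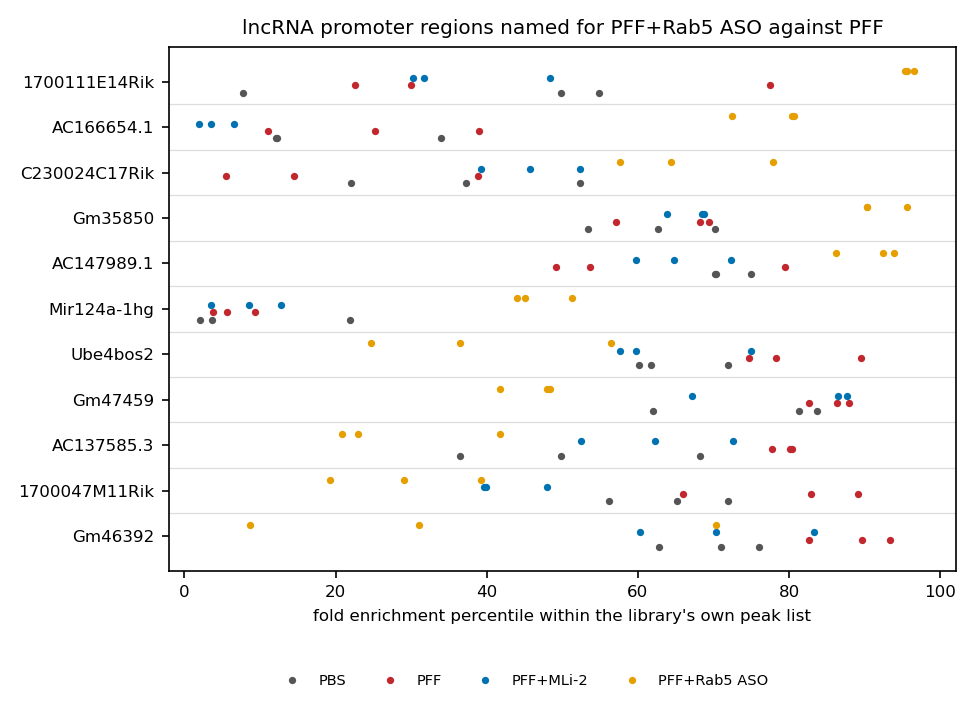
Fold percentile within each library's own peak list for the 10 lncRNA promoter regions with the largest called rises and falls in PFF+Rab5 ASO against PFF, and the called Mir124a-1hg region, 1 point per library and 3 per group. The 3 PFF+Rab5 ASO points (orange) of 1700111E14Rik lie above 95 and those of Gm47459 between 41.7 and 48.3, clear of the 9 other libraries in both.

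These calls depend on all 6 libraries and on the design. With the replicate number as a block, 25 regions were called, 22 of them among the 50. Without PFF replicate 1, 2 or 3, 18, 18 and 6 regions were called, and without PFF+Rab5 ASO replicate 1, 2 or 3, 0, 12 and 4. With 5 libraries the test has fewer degrees of freedom. Taking the percentile itself in place of its normal score gave 5 calls, 4 of them among the 50. Over the alternatives that gave a value, Gm47459 was called in 11 of 12, Mir124a-1hg in 10 of 12, AC137585.3 in 9 of 11 and AC166654.1 (the rising region) in 8 of 11. 1700047M11Rik was called in 6 of 11, Gm35850 in 6 of 12, 1700111E14Rik and Ube4bos2 in 5 of 11 each, AC147989.1 in 4 of 12 and C230024C17Rik in 2 of 11.

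In each PBS and PFF+MLi-2 library, most regions gained with the ASO had no peak, while their absence from PFF follows from the definition. Presence in the other groups was not counted over all regions, for gains or losses. Gm13713 (chr2:85161423-85161561), Gm13780 (chr2:92095493-92095671) and 4921501I09Rik (chr12:4240781-4240906) had peaks in the 3 PFF+Rab5 ASO libraries alone, at percentiles of 57.2 to 82.8 and with 16 to 22.0 fragments. Gm47566, over its start site, was at 74.6, 68.5 and 65.9 with the ASO and 23.5 in 1 PFF+MLi-2 library. Of all 64 gained regions, 21, 5 and 10 had a peak in PBS and 10, 8 and 9 in PFF+MLi-2, and 13 contained the start site.

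Regions lost with the ASO were often present in the other groups. Of the 80, 45, 31 and 30 had a peak in the PBS libraries and 36, 45 and 41 in PFF+MLi-2. 1700010L04Rik (chr7:82850756-82851171) was at 73.7, 70.1 and 77.4 in PFF, 29.3, 7.73 and 41.0 in PBS, and in 2 PFF+MLi-2 libraries. Gm49319 was at 66.0, 75.9 and 66.4 in PFF and in 2 libraries each of PBS and PFF+MLi-2. Among listed genes, a second region at Airn (chr17:12741724-12741896) was lost, from 33.0, 13.3 and 10.5 in PFF, and one at Mir124-2hg (chr3:17789578-17789795) was gained, at 12.2, 33.1 and 16.6 with the ASO. Leaving out 1 library gave 81 to 114 gained (without PFF replicate 3 and PFF+Rab5 ASO replicate 3) and 95 to 142 lost (without PFF+Rab5 ASO replicate 3 and PFF replicate 3).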

How the data were processed

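ATAC-seq peak lists of 12 libraries were analysed. The submitters' processing notes name Trim Galore 0.6.7 for trimming, Bowtie2 2.5.1 for alignment, GRCm38 as the build and MACS2 2.2.7.1 for peak calling, which the authors ran library by library without pooling. The MACS2 options, the handling of duplicates and any Tn5 shift are not given in the sources used here, and each could alter how many peaks there are and how wide and high they look. For every peak the deposited tables hold a score (unused), the -log10 p-value, the -log10 q-value and, as a ratio, the fold enrichment at the summit. Depth in reads is unknown. The summit pileup was recovered from the deposited fold and p-value and was whole, within 0.05, for 100% of peaks. For both agents the free-text description mentions PBS where title and treatment mention PFF, and titles were followed.

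Peaks overlapping by at least 1 bp were merged. Start sites were every annotated transcript start of GENCODE vM21, and sequence came from the RefSeq copy of GRCm38. Presence was counted without a test, since 3 libraries against 3 cannot give an exact p under 0.1. Normal scores of fold ranks over 72465 regions went into limma 3.58.1 (R 4.3.3), with the 6 libraries compared and no covariates. The threshold was 0.05 after Benjamini-Hochberg adjustment over all regions. Before that, the fit was run on the real scores with group means removed and known shifts added to some regions. Python 3.11.15, numpy 2.4.6, pandas 2.3.3, scipy 1.17.1 and matplotlib 3.10.9 were used.

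Named regions were the 6 with the highest mean percentile, the 5 largest called rises and falls of a comparison (or, with fewer than 4 calls, the 4 largest in each direction whose groups did not overlap), the 4 gained and 4 lost with the highest percentile, and regions of listed genes. Members and lists were chosen with earlier results of these data known. Alternatives were a stricter q, equal list lengths, 50 bp of overlap, gene starts alone, a 500 bp distance, 2 of 3 libraries, other height measures, a replicate block and leaving out each library. Some imprinted loci and some sequences are not reported here.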

Additional observations from a re-analysis of the deposited data

How the results depend on the processing

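The number of lncRNA promoter regions, 4629, was 3469 with a 500 bp limit, 3491 with a -log10 q of at least 5, 4690 with gene starts alone and 5691 with 50 bp of overlap. Presence of at least 2 of 3 libraries against at most 1 of 3 gave 397 gained and 204 lost with PFF, 166 and 435 with MLi-2, and 343 and 431 with the Rab5 ASO. Equal list lengths gave 35 gained and 12 lost with PFF, 25 and 30 with MLi-2, and 61 and 75 with the ASO. For regions lost with PFF, 8 in number, a -log10 q of at least 5 and 50 bp of overlap each gave 5, and whether these were among the 8 was not compared. Leaving out each library gave 62 to 114 gained and 15 to 40 lost with PFF, 16 to 30 and 87 to 112 with MLi-2, and 81 to 114 and 95 to 142 with the ASO, where the looser rule raises counts by construction. Height ranks gave 0 calls with PFF and MLi-2 under every alternative run, with 113 to 209 regions at an unadjusted p under 0.05. With the ASO, the 50 calls became 28 with ranks of the -log10 p-value (24 of the 50 among them), 5 on the percentile scale (4 among them) and 0 to 18 without 1 library; 45 were called over regions in the 6 libraries and 46 at a -log10 q of at least 5. Ranks of the summit pileup, chosen after seeing the data, called 53, with 31 of the 50 among them. The replicate block gave 25 calls (22 among the 50); same-numbered libraries deviated together with correlations of 0.00513 to 0.0347. Cultures of a pregnancy were spread over the groups, but whether a number marks the same pregnancy is not stated, so pairing by number could not be settled. No effect refitted reversed: of 125 refits of 11 ASO regions (the 10 largest rises and falls and Mir124a-1hg), 68 stayed called and 57 did not. The ASO calls at Gm12408, 2310008N11Rik and the falling AC166654.1 region were not refitted one by one. Mir124a-1hg stayed called in 10 of 12 refits (adjusted p 0.0187 to 0.0598) and Gm47459 in 11 of 12 (0.00939 to 0.0546), while Gm46392 and C230024C17Rik did in 2 of 11. For 7 of the 11 regions the stricter q gave no value because a library then had no peak. The cause of these differences was not tested. With few fragments per summit, absence of a peak means only that none was detectable.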

Other observations

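On the X and Y chromosomes, outside the 4629 regions, 91 further regions met the same distance rule, 89 of them on X, and 40 (44.0%) had a peak in all 12 libraries with a median fold percentile of 84.7. The highest were Firre (chrX:50635168-50635600), an RNA of X chromosome structure, at a mean percentile of 99.8, 2 regions of Ftx, an RNA of the X-inactivation centre, at 99.4 and 99.1, and then 5330434G04Rik at 98.5, 5730405O15Rik at 97.9 and 4933407K13Rik at 97.1. Jpx, also of the X-inactivation centre (chrX:103493322-103493915), followed at 96.4.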
